A study of Homo sapiens with 35 samples.

Results

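Contacts with the nuclear lamina were described for 5 very long human genes that lie in common fragile sites, FHIT, WWOX, IMMP2L, MACROD2 and LRP1B. The members were the 100-kb bins that overlap each gene's hg19 position, whatever their values, and they came to 79 of the 26584 bins with a value in every cell (30376 bins in the table). FHIT took 16 bins of chromosome 3, WWOX 12 of chromosome 16, IMMP2L 9 of chromosome 7, MACROD2 22 of chromosome 20 and LRP1B 20 of chromosome 2. Each gene was compared with its flanks, the 10 bins (1 Mb) on each side, which gave 100 bins in all. KBM7 is a leukaemia line that carries the Philadelphia translocation, and each profile is from 1 cell of its clone 5-5, labelled as diploid (2N). All cells carried Dam methylase fused to lamin B1 (LaminB1), were given 0.5 nM Shield1 for 15 h to induce methylation, and were sorted from the smallest 2% of cells that carried both Fucci cell-cycle reporters. There was 1 group, 1 clone and no unfused Dam, so the data hold no measure of how accessible the DNA was to Dam.

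Common fragile sites are regions where breaks and gaps appear on metaphase chromosomes of normal cells when DNA replication is slowed, and they often coincide with genes of extreme length. Such sites tend to replicate late and to have few replication origins in their core, and they are recurrently deleted in cancers. The lamina is a filament network on the inner face of the nuclear envelope, and the chromatin domains that touch it are typically poor in genes, weakly transcribed and late to replicate. The 5 genes share length and fragility and not a pathway. FHIT is a hydrolase of diadenosine polyphosphates and WWOX an oxidoreductase with WW domains. IMMP2L is a subunit of a peptidase of the inner mitochondrial membrane, MACROD2 removes ADP-ribose from proteins, and LRP1B is a large endocytic receptor related to the LDL receptor.

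Of the 35 samples listed, 32 had a column in the table, and the other 3 were not analysed here. The values are ratios of observed to expected reads (OE), and an OE of at least 1 was read as contact of that bin with the lamina in that cell. In 29 cells 40279 to 258222 reads were recovered from the ratios, and 1 read was worth a median OE of 0.0940 to 0.605. In cells 13, 15 and 17 only 984 to 1755 reads were recovered and 1 read was worth an OE of at least 13.7, so there a contact means any read. The contact share over all used bins was 22.1 to 36.0% in the 29 deeper cells and 3.51 to 5.99% in these 3. The cells are taken as replicates of 1 culture, and nothing in the labels says that they came from separate cultures. The 2 copies of each gene are not separated, nor are contacts at different moments of the induction. The data are of DNA only, so neither the cell type nor the transcription of the 5 genes could be checked. Reads were recovered from every member bin, in at least 10 and in a median of 25 of the 29 deeper cells. The expected reads of the member bins were 0.742 to 1.33 times those of the median bin.

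DamID reads start at methylated GATC sites, which DpnI cuts, so the sequence at a gene's start can be read for the sites that are open to the method. RefSeq's promoter table (GRCh38.p14, a build other than that of the bins) matched 4 of the 5 genes, FHIT, WWOX, IMMP2L and MACROD2. The 250 bases before their outermost start are shown because the starts of FHIT and MACROD2 lie near an edge of a contacted region and those of WWOX and IMMP2L do not. Capitals mark GATC, which reads the same on both strands. The stretches are chr3:61251453-61251702 (minus strand), chr20:13995266-13995515 (plus), chr16:78099404-78099653 (plus) and chr7:111562493-111562742 (minus), each printed 5′ to 3′ on the gene's strand.
FHIT: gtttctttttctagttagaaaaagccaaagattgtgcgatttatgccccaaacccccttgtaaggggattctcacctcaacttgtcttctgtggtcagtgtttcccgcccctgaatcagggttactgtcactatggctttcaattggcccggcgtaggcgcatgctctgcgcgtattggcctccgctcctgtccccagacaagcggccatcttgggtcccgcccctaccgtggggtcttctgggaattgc
MACROD2: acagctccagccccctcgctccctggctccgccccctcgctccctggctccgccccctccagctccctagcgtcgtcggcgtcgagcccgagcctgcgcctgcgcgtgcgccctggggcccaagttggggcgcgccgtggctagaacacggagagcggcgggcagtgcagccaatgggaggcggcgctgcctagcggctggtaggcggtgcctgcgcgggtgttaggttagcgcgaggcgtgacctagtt
WWOX: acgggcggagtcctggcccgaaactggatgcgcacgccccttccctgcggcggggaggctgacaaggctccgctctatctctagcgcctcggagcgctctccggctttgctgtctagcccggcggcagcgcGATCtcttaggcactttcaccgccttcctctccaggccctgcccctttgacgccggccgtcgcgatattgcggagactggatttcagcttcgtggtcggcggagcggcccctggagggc
IMMP2L: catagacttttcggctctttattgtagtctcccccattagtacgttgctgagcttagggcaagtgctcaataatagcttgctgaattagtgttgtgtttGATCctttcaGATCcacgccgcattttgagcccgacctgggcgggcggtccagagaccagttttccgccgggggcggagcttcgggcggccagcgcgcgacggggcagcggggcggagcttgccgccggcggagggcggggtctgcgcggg
The FHIT and MACROD2 stretches held no GATC, the WWOX stretch held 1 and the IMMP2L stretch 2. Of 35116 promoters in that table, 35.8% had at least 1 GATC in the same 250 bases. Their GC content was 54.0% for FHIT, 73.2% for MACROD2, 67.6% for WWOX and 61.6% for IMMP2L, beside a median of 58.0% over all promoters. The contact values are those of the surrounding 100 kb and not of the promoter alone.

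The 5 genes fell into a group of 3 that touched the lamina in many cells and a pair that did so in few. LRP1B had the highest contact share, 64.1% ± 29.4 of its bins, followed by MACROD2 with 63.1% ± 33.44 and FHIT with 53.7% ± 33.6. WWOX had 14.3% ± 21.8 and IMMP2L 13.2% ± 21.2 (SD, n = 32 cells for each). These shares were near the middle of the genome. Of non-overlapping windows of the same number of bins, 50.0% were higher than WWOX and 49.9% higher than IMMP2L. The step between FHIT and WWOX, 39.4 percentage points ± 39.2 (SD of the difference within a cell, n = 32), was about the size of its SD and just above it, and FHIT was higher in 27 of 32 cells and lower in 3. The other neighbours in this order differed by less than their SD between cells. The differences were 0.994 points ± 34.8 between LRP1B and MACROD2, 9.36 ± 35.9 between MACROD2 and FHIT and 1.13 ± 29.4 between WWOX and IMMP2L. This SD is the spread between cells and not the error of the mean, and no step in the order was tested. LRP1B, first by its mean, was above MACROD2 in 9 cells and below it in 22.

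Of the 79 member bins, 48 (60.8%) passed the test for contact more often than follows from the contact shares of the cells, against 30.3% of all 26584 bins. A further 9 (11.4%) were called less often, against 54.5% of all bins, and 22 were not called (exact Poisson-binomial test per bin, doubled smaller tail, Benjamini-Hochberg adjustment over all bins). From those shares 8.42 cells are expected per bin, and bins called more often were in contact in at least 15 cells and bins called less often in at most 3. The median contact frequency, the percentage of cells in contact, was 59.4% over the member bins and 6.25% over all bins. No member bin was in contact in no cell, whereas 42.0% of all bins were. The 48 bins came from MACROD2 (21 of 22), LRP1B (15 of 20) and FHIT (12 of 16). The 9 came from WWOX (5 of 12) and IMMP2L (4 of 9). With an OE limit of 2, 18 member bins were called less often, and with any read counted none was, also at an unadjusted p under 0.05. The shares of all bins called under these other limits are not given here, so these counts have no background beside them. Neighbouring bins are not independent, and the genes were chosen for this description with earlier results of these data known.

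**Figure D1:**
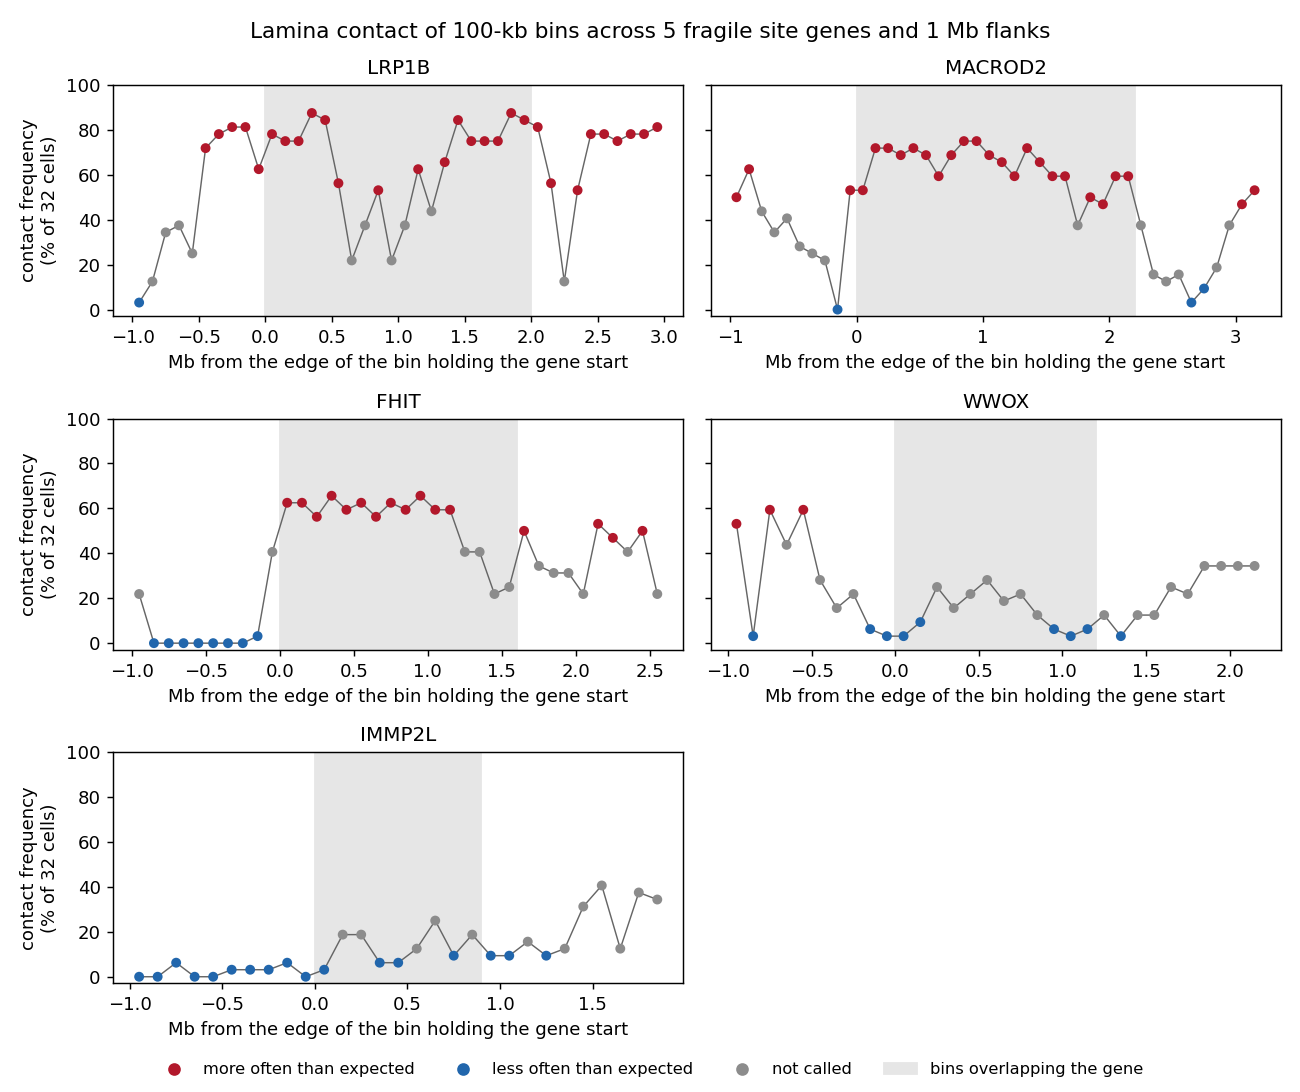
Contact frequency (vertical axis, % of 32 cells) of each 100-kb bin across the 5 genes and 1 Mb on each side, against the distance in Mb from the outer edge of the member bin at the gene start, drawn in the direction of transcription. Red points are bins called more often, blue points bins called less often, grey points are not called, and grey shading marks bins overlapping the gene; FHIT and MACROD2 rise near their starts, LRP1B dips in its middle, and the bins of WWOX and IMMP2L themselves stay at or below 28.1% while their flanks reach higher values.

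MACROD2 was a contacted stretch on a chromosome with few contacts. Its share was 4.55% in the lowest, 70.5% in the median and 100% in the highest cell, and its flanks had 30.5% ± 25.4 (SD, n = 32). The gene exceeded its flanks in 32 of 32 cells, by 32.6 points ± 19.5 (sign-flip permutation test over cells, two-sided, adjusted p = 2.52e-05). This and the other adjusted p-values of windows were adjusted by Benjamini-Hochberg over the gene and all non-overlapping windows of the same number of bins, and 30.9% of the 1179 windows for MACROD2 were called higher than their flanks. The rest of chromosome 20 had a share of 11.9% ± 6.30, which MACROD2 exceeded by 51.1 points ± 30.9 in 32 of 32 cells (adjusted p = 1.41e-05, with 37% of windows called higher than the rest of their chromosome). No other window of this length on chromosome 20 was higher (24 windows, highest 62.1%, median 2.34%), and 13.1% of such windows in the genome were.

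The bins of MACROD2 were in contact in 37.5 to 75.0% of the cells. The longest run of bins called more often covered the first 1.7 Mb from the gene start (chr20:13900001-15600000, mean frequency 66.7%), and the only bin not called lay just after it (12 of 32 cells). Of the 20 flank bins on both sides, 5 were called more often and 3 less often. Before the gene start, the nearest flank bin was in contact in 17 cells, as was the bin that holds the start, and the next one (chr20:13700001-13800000) in none of 32, which allows a frequency of up to 9.38%. Contact was higher again farther out before the start, with 20 cells at chr20:13000001-13100000. In the gene table SEL1L2 is the next protein-coding gene on that side, 0.183 kb from MACROD2, and FLRT3 lies within MACROD2. The first 3 bins of the gene had a share of 65.6% against 25.0% for the 3 bins before it, a difference of 40.6 points ± 31.4, and the gene was higher in 23 cells and lower in none. At the gene end the last 3 bins had 55.2% and the 3 bins beyond 21.9%, and the gene was higher in 18 cells and lower in 1. The first 7 bins exceeded the last 7 by 13.4 points ± 32.4, which did not pass (adjusted p = 0.0606, range 0.0208 to 0.542 over the settings tried). It passed with an OE limit of 2 (16.1 points, adjusted p = 0.0208) and with only bins wholly inside the gene (16.7 points, adjusted p = 0.0273).

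FHIT had a sharp edge at its start. The gene's share was 0% in the lowest, 59.4% in the median and 100% in the highest cell, and it exceeded the flanks, at 22.3% ± 19.6, by 31.4 points ± 20.3. It was higher in 28 of 32 cells and lower in 1 (sign-flip permutation test, adjusted p = 3.01e-05, with 27.7% of 1631 windows of 16 bins called higher). The difference came more from the side of the start, where the flank had 6.56% ± 7.87, than from the side of the end, where it had 38.1% ± 34.0. On the start side the nearest bin was in contact in 13 cells, the next in 1, and the following 7 bins (chr3:61500001-62200000) in none of 32. The next protein-coding gene on that side in the gene table is PTPRG, a receptor tyrosine phosphatase, 310 kb from FHIT. The first 3 bins of FHIT had a share of 60.4% against 14.6% for the 3 bins before the start, 45.8 points ± 38.6 apart, with the gene higher in 21 cells and lower in none. At the other end the last 3 bins had 29.2% and the 3 bins beyond 38.5%, with the gene higher in 5 cells and lower in 11.

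The contacts of FHIT weakened toward its end. All 12 bins from the gene start to 1.2 Mb (chr3:60100001-61300000) were called more often, with a mean frequency of 60.9%, and the last 4 bins, at 21.9 to 40.6%, were not called. The first 5 bins had a share of 61.3% and the last 5 bins 37.5%, a difference of 23.8 points ± 33.9, with the start higher in 19 cells, lower in 3 and equal in 10 (adjusted p = 0.00123). Differences between the first and last 5 bins of a window, in either direction, were called in 48% of windows of this length. With any read counted as contact the difference was 3.75 points and did not pass (adjusted p = 0.541, the range over the settings tried being 0.00104 to 0.541). FHIT also exceeded the rest of chromosome 3, at 31.8% ± 10.4, by 21.9 points ± 27.9, in 25 of 32 cells (adjusted p = 0.000169, with 35.8% of windows called higher). With an OE limit of 2 that difference was 3.39 points and did not pass (adjusted p = 0.463, range 1.42e-05 to 0.463). At that limit 5 FHIT bins were called more often in place of 12, and the share of all bins called is not given. With the OE limit of 1, 33 of the 118 windows of 16 bins on chromosome 3 had a higher share than FHIT. In the genome 21.8% of such windows did.

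LRP1B was next to contacted bins on both sides, and the lower values within the gene were in its middle. The gene's share was 0% in the lowest, 72.5% in the median and 100% in the highest cell. The 0% was in the shallow cell 13, and the lowest share in the 29 deeper cells was 5%. The flanks of LRP1B had 58.0% ± 25.0, with 14 of the 20 flank bins called more often. The difference of 6.09 points ± 17.6, higher in 20 cells and lower in 10, did not pass (sign-flip permutation test, adjusted p = 0.0979, range 4.13e-05 to 0.810 over the settings tried). The call changed with the flank, the difference being 18.4 points (adjusted p = 4.13e-05) with flanks of 2 Mb and -1.56 points (adjusted p = 0.810) with flanks of 0.5 Mb. It also changed with the contact limit, at 7.97 points (adjusted p = 0.0257) for an OE of 2 and 4.22 points (adjusted p = 0.0103) for any read. The flanks had 48.8% ± 24.2 before the gene start and 67.2% ± 30.9 after the gene end. Against the first alone the difference was 15.3 points (adjusted p = 0.000667), and against the second alone -3.13 points (adjusted p = 0.586). The start-side bins from chr2:143400001 outward were in contact in 1 to 12 of 32 cells, and none was called more often. The 3 bins before the gene start had a share of 75.0% and the first 3 bins of the gene 76.0%. At the gene end the last 3 bins had 82.3% and the 3 bins beyond 50.0%, a difference of 32.3 points ± 28.7, with the gene higher in 23 cells and lower in 1. Of the 3 bins beyond, the nearest was in contact in 26 of 32 cells, the next in 18 and the farthest in 4. Contact was higher again farther out, with 25 cells at chr2:140400001-140500000. Against the rest of chromosome 2, at 29.7% ± 9.78, LRP1B was higher by 34.4 points ± 23.5 in 29 of 32 cells (adjusted p = 1.43e-05, with 35.6% of windows called higher). Of the 115 windows of 20 bins on chromosome 2, 21 had a higher share than LRP1B, as did 13.8% of such windows in the genome.

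The first 6 and last 6 bins of LRP1B had together a share of 78.1% ± 30.9 and the 8 bins between them 43.0% ± 33.0. The middle was lower by 35.2 points ± 24.6, in 28 of 32 cells, and higher in none. This comparison was added after the profile was seen and is given as a description, with no test. In the other 4 genes the middle differed from the outer bins, split in the same proportion, by -7.29 (IMMP2L) to 12.5 points (WWOX). The middle of LRP1B was uneven. Its bins at chr2:142000001-142100000 (17 cells), chr2:141700001-141800000 (20 cells) and chr2:141500001-141600000 (21 cells) were called more often, and its other bins were not called. The lowest bins of LRP1B were at chr2:141900001-142000000 and chr2:142200001-142300000, with 7 of 32 cells each, and the highest at chr2:141000001-141100000 and chr2:142500001-142600000, with 28 of 32 cells. The 2 low bins held 107 and 127 reads over all cells and the 2 high bins 569 and 538, while their expected reads were 0.939 and 1.04 against 1.08 and 1.08 times those of the median bin. Whether copy number differs between these bins was not tested. The gene table lists no other protein-coding gene inside LRP1B. The first and last 6 bins had shares of 76.0% and 80.2%, a difference of -4.17 points ± 23.9 that did not pass (adjusted p = 0.591).

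**Figure D2:**
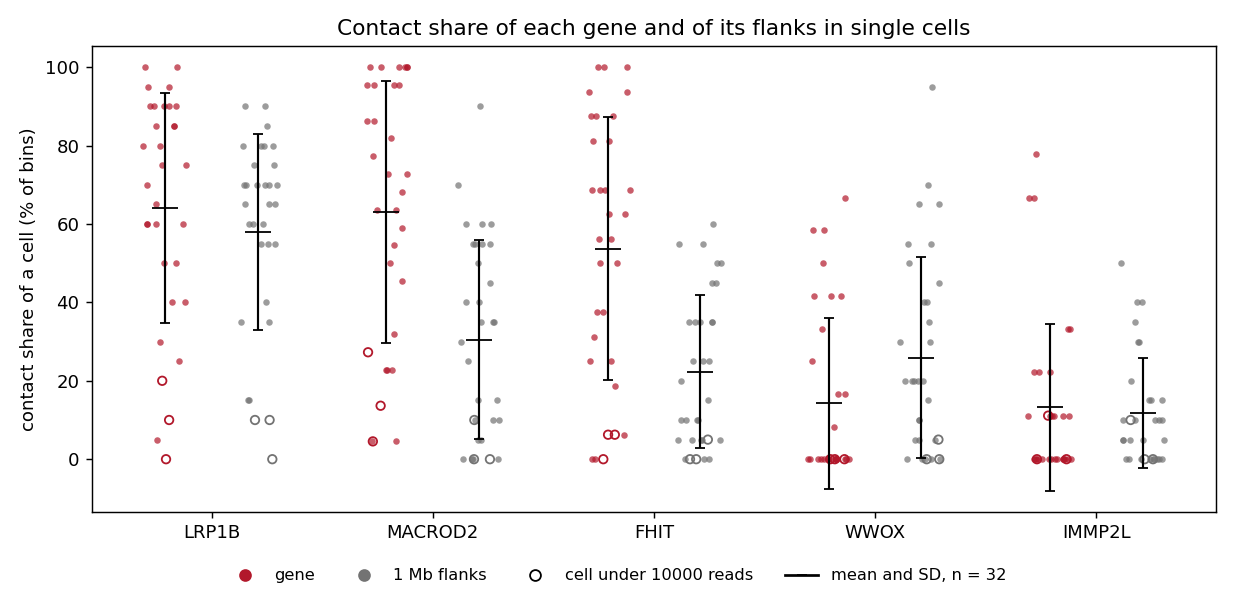
Contact share (vertical axis, % of bins in a cell) of each gene in red and of its 1 Mb flanks in grey, 1 point per cell, with open points for the 3 cells under 10000 reads and bars for the mean and SD over 32 cells. MACROD2 and FHIT had means above those of their flanks by 32.6 and 31.4 points, and WWOX had a mean below them by 11.6 points.

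WWOX was in contact less often than the regions around it. Its share was 0% in the lowest and the median cell and 66.7% in the highest, and 20 of 32 cells had no WWOX bin in contact. The flanks had 25.9% ± 25.5, and the gene was lower by 11.6 points ± 16.5, in 22 cells, higher in 3 and equal in 7 (sign-flip permutation test, adjusted p = 0.00101, with 33.3% of 2180 windows of 12 bins called lower). The difference is one with regions farther from the gene, because with flanks of 0.5 Mb it was 0.260 points (adjusted p = 1, range 2.31e-05 to 1) and with flanks of 2 Mb -21.4 points. The 3 bins next to each end of the gene had shares of 10.4% (start) and 9.38% (end), beside 12.5% in the first and 5.21% in the last 3 bins of WWOX.

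Inside WWOX the bins formed a low hump. The first 2 bins and the last 3, 5 of 12 beside 54.5% of all bins, were called less often, at 3.13 to 9.38% of the cells, and the 7 bins between them were not called, at 12.5 to 28.1%. The highest bin was chr16:78600001-78700000, with 9 of 32 cells, and the lowest were the bin holding the gene start (chr16:78100001-78200000) and chr16:79100001-79200000, with 1 cell each. None of the 12 bins was called more often by the Poisson-binomial test, beside 30.3% of all bins, and none at an unadjusted p under 0.05. WWOX differed from the rest of chromosome 16, at 10.1% ± 5.37, by 4.18 points ± 19.1, which did not pass (adjusted p = 0.246). It was higher in 10 cells and lower in 22. Of the 63 windows of this length on chromosome 16, 13 had a higher share, and the median was 0.781%. With any read counted the difference was 21.7 points (adjusted p = 0.000299, range 0.000299 to 0.639).

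IMMP2L had the lowest mean share of the 5 genes, which did not differ from that of WWOX beyond the spread between cells. Its share was 0% in the lowest and the median cell and 77.8% in the highest, with no bin in contact in 17 of 32 cells. The flanks had 11.7% ± 14.1, and the difference of 1.48 points ± 16.8 did not pass (sign-flip permutation test, adjusted p = 0.785, range 0.00576 to 1). The flanks differed from each other, with 2.19% ± 9.06 before the gene start and 21.3% ± 24.2 after the gene end. Against the first alone the difference was 11.0 points (adjusted p = 0.00576), and against the second alone it was -8.06 points (adjusted p = 0.0341). Of the 10 bins before the start, 5 were in contact in no cell and the other 5 in 1 or 2 cells. DOCK4, an exchange factor for small GTPases, is the next protein-coding gene on that side, 164 kb away in the gene table.

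The bins of IMMP2L were in contact in 1 to 8 of 32 cells, and 4 of the 9 were called less often, beside 54.5% of all bins. The median IMMP2L bin was at 12.5% of the cells and the median of all bins at 6.25%. The lowest was the outermost member bin on the side of the gene start (chr7:111100001-111200000), in 1 cell, and the highest chr7:110500001-110600000, in 8 cells. The gene position used ends at 111.2 Mb, the outer edge of the lowest bin, so the start itself may lie in the next bin. None was called more often by the Poisson-binomial test, beside 30.3% of all bins, and none at an unadjusted p under 0.05. LRRN3, a leucine-rich repeat protein gene, lies inside IMMP2L in the gene table, and its place among the bins was not determined because the builds differ. The first 3 bins had a share of 13.5% and the last 3 bins 17.7%, a difference of -4.17 points ± 29.0 that did not pass (adjusted p = 0.941). IMMP2L was below the rest of chromosome 7, at 20.7% ± 8.00, with a difference of -7.53 points ± 18.9, in 24 of 32 cells (adjusted p = 0.0361, with 55% of windows of 9 bins called lower). Among the 169 windows of this length on chromosome 7, 81 had a higher share than IMMP2L and the median was 9.72%, below that of the gene. This call did not hold without the 8 cells of fewest reads (adjusted p = 0.0628) or after thinning (adjusted p = 0.0904). With any read counted the gene was above the rest by 9.69 points (adjusted p = 0.0369, range 1.49e-05 to 0.758).

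In single cells the contacted genes were seldom all on or all off. Among the 29 deeper cells, MACROD2 had every bin in contact in 6, FHIT in 3 and LRP1B in 2, and WWOX and IMMP2L in none. MACROD2 and LRP1B had at least 1 bin in contact in each of these 29 cells, and FHIT in all but 2. WWOX had none in 17 and IMMP2L none in 15. Cells with at least 80% of the bins of a gene in contact numbered 14 for LRP1B, 13 for MACROD2 and 10 for FHIT. Cells at intermediate shares, between 20 and 80%, numbered 14, 14 and 15. The longest unbroken run of contacted bins within the gene had a median of 0.9 Mb in MACROD2, 0.7 Mb in LRP1B and 0.5 Mb in FHIT. The longest runs seen in any cell spanned all 2.2 Mb of MACROD2, all 2 Mb of LRP1B and all 1.6 Mb of FHIT. In WWOX the longest was 0.8 Mb and in IMMP2L 0.5 Mb. In the 3 shallow cells at most 27.3% of the bins of any of the 5 genes were in contact.

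**Figure D3:**
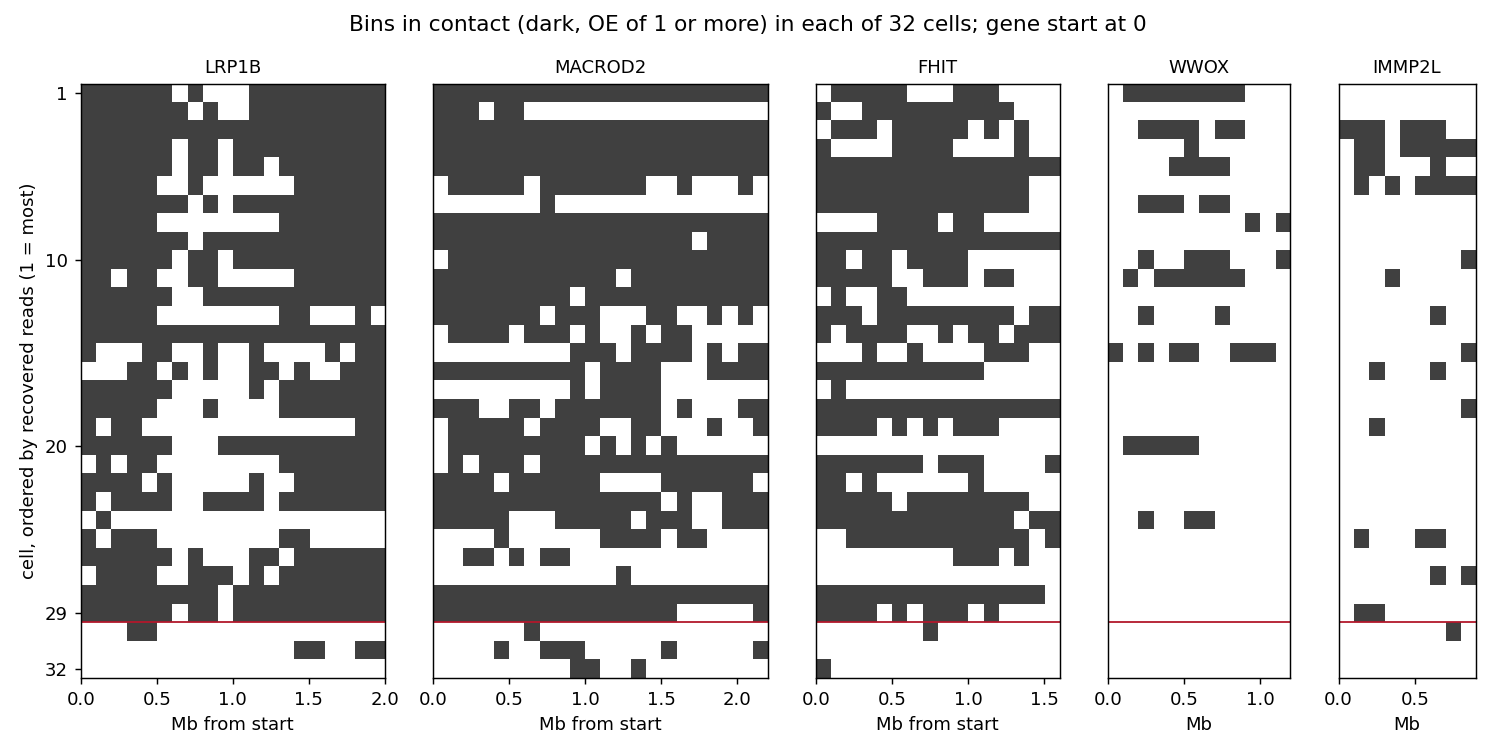
Bins in contact (dark) across each gene, with the distance in Mb from the gene start on the horizontal axis and 1 row per cell, ordered from most to fewest recovered reads; the red line sets off the 3 cells under 10000 reads. MACROD2 was filled in 6 cells, LRP1B broke in its middle, and WWOX and IMMP2L were empty in 17 and 15 of the 29 deeper cells.

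The mean OE over the bins of a gene, which uses no contact limit, gave the same grouping. In the 29 deeper cells it was 2.19 ± 1.11 for LRP1B, 2.02 ± 1.26 for MACROD2 and 1.48 ± 0.962 for FHIT (SD, n = 29). It was 0.405 ± 0.458 for WWOX and 0.399 ± 0.390 for IMMP2L. MACROD2 ranged from 0.273 in the lowest to 6.31 in the highest cell, with a median of 2.05, and LRP1B from 0.159 to 5.66 with a median of 2.17. WWOX had a median of 0.125 and a highest value of 1.63, and IMMP2L 0.318 and 1.40. The gene was above its flanks in 27 of 29 cells for MACROD2 and FHIT, in 18 for IMMP2L, in 16 for LRP1B and in 3 for WWOX.

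Correlations between the contact shares of the genes over cells were low, and none was tested. Over the 29 deeper cells, Pearson's r between the contact shares of 2 genes ranged from -0.116 (FHIT and LRP1B) to 0.264 (FHIT and MACROD2) over the 10 pairs. MACROD2 was the gene most like each of the others, FHIT (0.264), WWOX (0.199), IMMP2L (0.184) and LRP1B (0.152). These are descriptions over 29 points that share depth and the total contact share of the cell, which itself had an r of 0.252 (MACROD2) to 0.472 (WWOX) with the genes. WWOX also had the highest r with the logarithm of the recovered reads, 0.452, and FHIT the lowest, 0.105. WWOX and IMMP2L had no bin in contact in 17 and 15 of the 29 cells, which limits what r can show for them. At least 50% of the bins were in contact in 3 of the 5 genes in 11 cells, in 2 genes in 9 cells, in 1 gene in 5 cells, in 4 genes in 3 cells and in all 5 in 1 cell.

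A list of 11 other large genes of common fragile sites split in the same way, into many that were often in contact and few that were not. Their hg19 positions were entered by hand from general knowledge, and their chromosomes and lengths were checked against the gene table, with all 11 chromosomes matching and length ratios of 0.991 to 1.03. Of their 171 bins, 125 (73.1%) were called more often and 27 (15.8%) less often, beside 30.3% and 54.5% of all bins. In 8 genes the mean share was above 50% and in 3 it was under 20%, with a median of 67.3% over the genes. The highest were ERBB4, a receptor tyrosine kinase gene, with 80.2% ± 28.4, IL1RAPL1, a synaptic adhesion gene, with 80.1% ± 28.0, and DMD, the dystrophin gene, with 75.8% ± 25.2 (SD, n = 32). The lowest were SDK1, a cell adhesion gene, with 3.13% ± 7.52, AUTS2, a neurodevelopmental gene, with 10.8% ± 18.8, and NBEA, a gene of membrane trafficking, with 14.5% ± 19.9. WWOX and IMMP2L lay between NBEA and AUTS2, and LRP1B and MACROD2 fell below the median of the 11 genes.

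**Figure D4:**
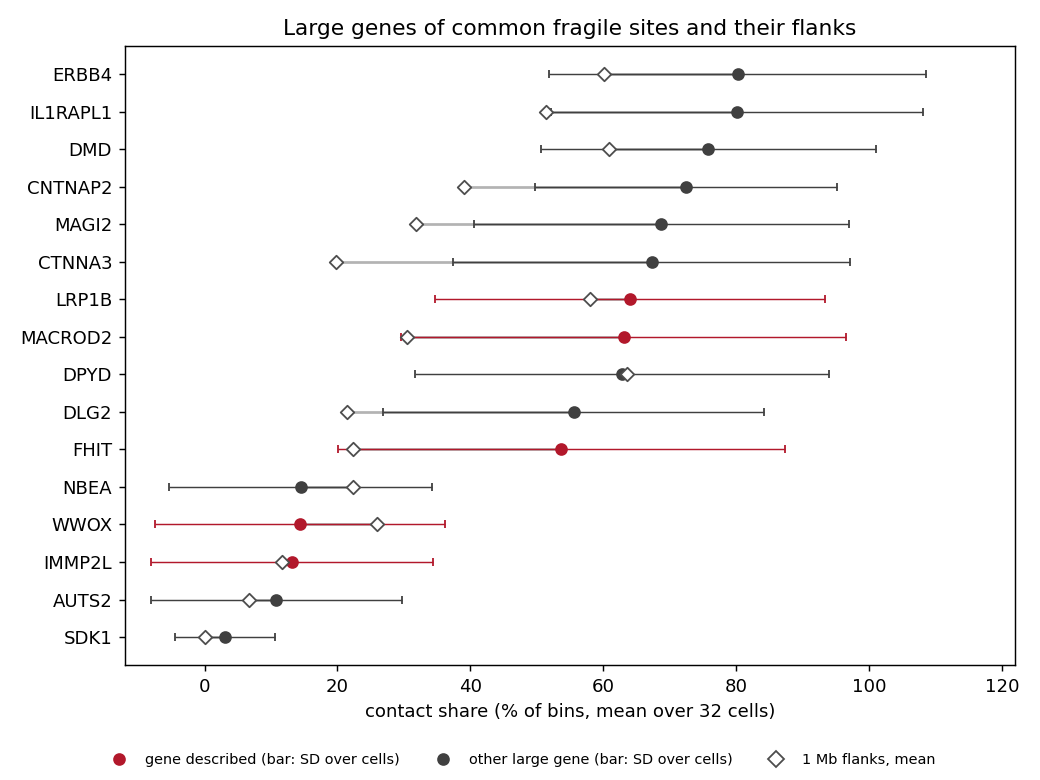
Mean contact share (horizontal axis, % of bins, 32 cells) of the 5 genes in red and of 11 other large genes of common fragile sites in dark grey, with SD over cells as bars, and of their 1 Mb flanks as open diamonds joined by a line. There is a gap between FHIT at 53.7% and NBEA at 14.5%.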

How the data were processed

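Lamin B1 DamID of single cells was deposited as ratios of observed to expected reads (OE) per 100-kb bin. Tools named per the submitters' processing notes are Bowtie2 2.1.0 and cutadapt, with the build hg19. For the expectation, read filters and duplicates the method is not given in the sources used here. Per the labels' protocols, DNA was cut with DpnI and amplified with 21 extension steps. Positions are hg19, counted from 1, except promoter sequences. Gene names, lengths and neighbours come from a RefSeq table of GRCh38.p14; the strand of LRP1B is from general knowledge.

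Whole reads were recovered from the steps of the ratios within a bin, and 4 of 379093 values above 0 were off by 0.01 reads or more. Bins were tested with an exact Poisson-binomial test against the cells' contact shares, adjusted over 26584 bins. Gene contrasts were tested within cells by two-sided sign-flip permutation (100000 resamples, smallest p 1e-05), adjusted with all tiled windows of the gene's number of bins, at least 80% of them with values; threshold 0.05. The scripts (Python 3.11.15, numpy 2.4.6) were tested on simulated data. The genes named are those of the rule with their extreme bins, and the 3 highest and 3 lowest of the 11 other genes. A further gene of each list is not reported here. The genes, lists and tests were chosen with earlier results of these data known. Alternatives were OE limits of 0.5, 2 and any read, fewer cells, thinning of 29 cells to 40279 reads, fewer bins and other flanks.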

Additional observations from a re-analysis of the deposited data

How the results depend on the processing

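Of 156 recomputed values (15 contrasts and 2 counts of bins), 134 kept their side of the threshold with no called value changing sign or, for the counts, stayed within 1.5 times. MACROD2 and FHIT against flanks and MACROD2 and LRP1B against the rest of their chromosome passed under every setting tried for them. With any read counted, IMMP2L was above its flanks by 9.77 points (adjusted p = 0.0116) and above its chromosome by 9.69 (0.0369), LRP1B above its flanks by 4.22 (0.0103), WWOX above its chromosome by 21.7 (0.000299), the 2 ends of FHIT differed by 3.75 (0.541), and 0 of the 79 bins were called less often by the Poisson-binomial test (0 at an unadjusted p under 0.05). With an OE limit of 2, FHIT exceeded its chromosome by 3.39 points (adjusted p = 0.463), LRP1B its flanks by 7.97 (0.0257) and the start of MACROD2 its end by 16.1 (0.0208), and 18 bins were called less often. With a limit of 0.5, IMMP2L differed from its chromosome by -1.26 points (0.758). After thinning, that difference was -5.61 (0.0904), the 2 ends of WWOX differed by 12.1 (0.00804) and 3 bins were called less often (8 at an unadjusted p under 0.05). The shares of all bins called under these settings are not given, so the counts of bins have no background beside them. Without the 8 cells of fewest reads, IMMP2L differed from its chromosome by -8.77 (0.0628). With only bins wholly inside the genes, the 2 ends of LRP1B differed by -10.4 (0.0179) and those of MACROD2 by 16.7 (0.0273). With other flanks, IMMP2L differed by -8.06 (left flank, 0.0341) and 11.0 (right, 0.00576), LRP1B by 18.4 (2 Mb, 4.13e-05) and 15.3 (right, 0.000667), and WWOX by 0.260 (0.5 Mb, p = 1). The cause was not tested for changes with the contact limit, thinning or fewer cells; other flanks are other regions. No paired analysis was possible because the series has 1 group and so no groups that share replicate numbers; the contrasts of regions are themselves paired within cells. Depth limits the 3 shallow cells most, where 1 read makes a contact. In the 29 deeper cells 1 read was worth a median OE of up to 0.605, so a contact could rest on few reads in any gene. WWOX and IMMP2L held 1225 and 770 reads in these 29 cells. Their median expected reads were 1.19 and 1.02 times those of the median bin, beside 1.13 for FHIT, 1.05 for MACROD2 and 1.03 for LRP1B. The 11 other genes were not recomputed.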
